A study of Mus musculus with 14 samples.

Results

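Gene expression on day 5 was compared with that on day 3 of overload of the plantaris, a hindlimb muscle, in old mice, an interval named for the onset of myogenesis. The comparison was defined by the time point that the labels give each array, and it held 4 of the 14 arrays of the series: a left and a right pool of day 3 and a left and a right pool of day 5. All mice were male C57BL/6J animals of 25 months, and all arrays of days 3 and 5 came from muscles overloaded by ablation of the synergist muscles, with no transgene and no drug. Each array held RNA of 6 pooled plantaris muscles of one side, each day was a different set of animals, and no array is labelled as sham-operated. The left and right pools of a day were read as muscles of the same animals, so the p-values reflect how far sides and arrays differ and not how far animals do, and day and animals cannot be told apart. The other 10 arrays, of days 0, 1, 7, 10 and 14, were used to estimate the spread and to place each change in the time course.

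In regenerating or growing muscle, satellite cells, the stem cells of the fibre, divide, leave the cell cycle and express the transcription factor myogenin. They then fuse with each other or with fibres through the membrane proteins myomaker and myomixer. New myonuclei and fibres pass through a stage in which embryonic and neonatal myosins, cardiac-type actin and troponin, and the fetal subunit of the acetylcholine receptor are made before the adult isoforms.

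Values are log2 signals of Affymetrix Mouse Gene 1.0 ST arrays, and each difference is day 5 minus day 3 on the log2 scale with its standard error, from limma fitted to all 14 arrays with n = 2 arrays per day. A gene was called, and is said to have risen or fallen, when its p was under 0.05 after Benjamini-Hochberg adjustment across the 19938 genes tested. Of these genes 1313 (6.59%) were called, 934 (4.68%) higher and 379 (1.9%) lower on day 5, and 69 (0.346%) and 15 (0.0752%) of them by at least 2-fold. The 4.68% and 1.9% are the shares over all genes to set beside each list count given below. With equal array medians the split was 780 higher and 532 lower, and with the median difference set to 0 it was 1191 and 290. The median difference over all genes was -0.033, and the median standard error was 0.0974, a precision set by the small number of arrays. The left and right arrays correlated at r = 0.997 across genes on each of the days. Calls depended on single arrays: without the left or the right array of day 3, 415 and 554 genes were higher and 160 and 140 lower, and without the left or the right array of day 5, 478 and 426 were higher and 257 and 99 lower. In each such fit the lone array was assumed to vary like the other days. Of the 214 called genes that are named or belong to a list or to the chromosome 12 domain described here, 110 kept their call without each of the 4 arrays in turn, and a call that ended is marked as such where the gene's change is described.

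The markers of the tissue were those of muscle with many other cells. The fibre genes Ckm, the muscle creatine kinase, and Acta1, the skeletal actin, lay at the 99.8th and 100.0th percentiles of the genes by signal, and the macrophage gene Cd68 at the 99.0th, while the keratinocyte genes Krt5 and Krt14 lay at the 33.6th and 35.5th percentiles. Markers of differentiating myocytes were also present on day 3 already. The mean signal of Myog, the gene of myogenin, was 7.22, 8.37, 9.47 and 10.01 on days 0, 1, 3 and 5, and 10.49, 10.38 and 9.28 on days 7, 10 and 14. Its rise of 0.54 from day 3 to day 5 followed a rise of 1.10 from day 1 to day 3, so the onset of Myog itself lay before day 3. In these bulk samples fewer cells of a type and less RNA per cell cannot be told apart.

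**Figure D1:**
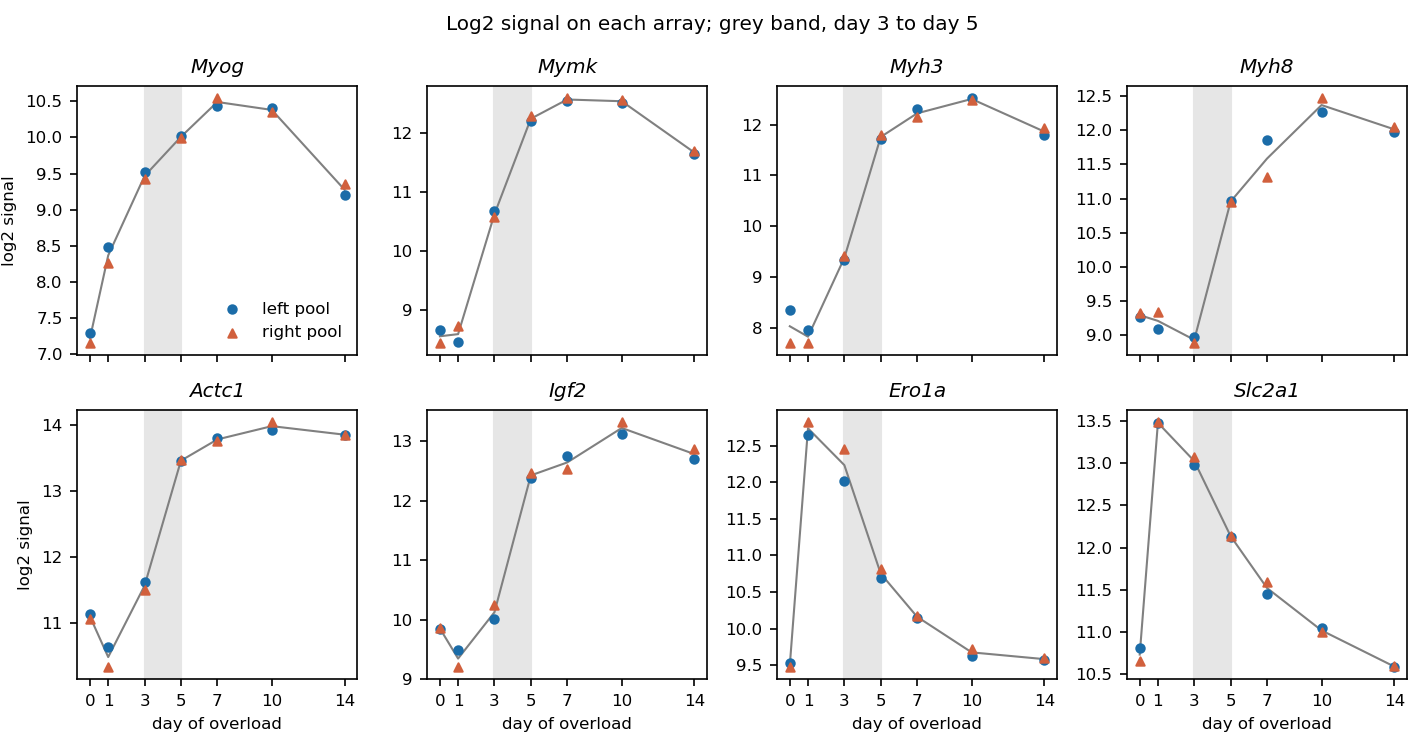
Log2 signal of 8 genes on each array against the day of overload, with left pools as circles, right pools as triangles, a line through the daily means and a grey band from day 3 to day 5. Myog and Mymk were already above their day 1 signals on day 3, Myh8 rose within the band from 8.98 and 8.89 to 10.96 and 10.95, and Ero1a and Slc2a1 fell from signals reached by day 1.

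Genes of developmental contractile proteins had the highest median among the lists. Of 8 measured members 7 rose and none fell, with a list median of 1.12 against -0.033 over all genes. Myh3, the embryonic myosin heavy chain, had signals of 9.34 and 9.41 on the left and right arrays of day 3 and of 11.71 and 11.80 on day 5. The arrays of each day lay within 0.1 of each other and the days did not overlap. The rise of 2.38 ± 0.16, which is 5.21-fold (adjusted p = 1.1e-05), was the largest among all genes. Myh8, the neonatal myosin heavy chain, was at 8.98 and 8.89 on day 3 and at 10.96 and 10.95 on day 5, a rise of 2.03 ± 0.15 or 4.07-fold (adjusted p = 1.4e-05). Its 4 earlier arrays lay between 9.09 and 9.34, so day 3 was not above day 0 or day 1, and the step from day 1 to day 3 was -0.28 (adjusted p = 0.137). The test of the difference between the steps gave 2.30 (adjusted p = 3.0e-04), so that Myh8 rose more between days 3 and 5 than between days 1 and 3.

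Actc1, the cardiac alpha-actin that fetal muscle also uses, was at 11.62 and 11.50 on day 3 and at 13.45 and 13.46 on day 5. The day 5 arrays were nearly equal and far above those of day 3, and the rise was 1.90 ± 0.10 (adjusted p = 2.5e-06). It exceeded the steps on either side, by 0.81 against days 1 to 3 (adjusted p = 0.00911) and by 1.57 against days 5 to 7 (adjusted p = 0.00566). Tnnt2, the cardiac-type troponin T, went from 11.06 and 11.28 to 12.31 and 12.41, with no overlap (1.19 ± 0.10, adjusted p = 4.1e-05). The light chain genes Myl4 and Myl6b rose by 1.05 and 0.88, and Mybph, which encodes a myosin-binding protein, by 0.46, a call that ended without the right array of day 3 or the left array of day 5 (adjusted p = 0.0949 and 0.104). Myo18b, a myosin needed for sarcomere assembly, was at -0.18 (adjusted p = 0.557). Of 11 slow fibre genes 2 rose and 1 fell, with a median of -0.06, 5 values above 0 and 6 below. Tnni1, the slow troponin I that fetal muscle also makes, rose by 1.25 ± 0.20 (adjusted p = 0.00247) and Casq2, the cardiac calsequestrin of the calcium store, by 1.17 ± 0.08 (adjusted p = 1.1e-05). Myl3, a slow light chain, fell by 1.14, but its arrays of day 3 were far apart at 8.49 and 9.26, and the call ended without the right array of either day (adjusted p = 0.134 and 0.131).

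Lists of adult fibre genes also held few calls, and at the 6.59% called over all genes lists of this size would hold few. None of 14 adult fast fibre genes was called (3 had an unadjusted p under 0.05 in limma, all 3 with a lower value), and their median was -0.05. In the list of sarcomere assembly and Z-disc genes 1 of 26 rose, Lmod3, a leiomodin that nucleates thin filaments (0.42, adjusted p = 0.0241, ended without any one of the 4 arrays, highest adjusted p = 0.146). The median of that list was -0.20.

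Genes of commitment and fusion rose in part. Mymk, which encodes myomaker, was at 10.67 and 10.57 on day 3 and at 12.20 and 12.29 on day 5. The pools of a day were close to each other and the days did not overlap, and the rise of 1.62 ± 0.10 (adjusted p = 8.9e-06) was 3.08-fold. It had risen by 2.04 from day 1 to day 3, and the steps did not differ by the test (-0.42, adjusted p = 0.175), whereas the rise from day 5 to day 7 was smaller by 1.30 (adjusted p = 0.0431). Mymx, its partner myomixer, went from 8.34 and 8.39 to 8.60 and 8.74, without overlap and without a call (0.31 ± 0.11, adjusted p = 0.142). Of 20 fusion genes 5 rose and none fell, with a median of 0.13. Ehd2, a membrane-shaping ATPase, rose by 0.48 (adjusted p = 0.00333). Cdh2, the adhesion molecule N-cadherin, and Jam3, a junctional adhesion molecule, rose by 0.63 and 0.57, calls that ended without the left array of day 3 (adjusted p = 0.0607 and 0.0761) and, in turn, without the right or the left array of day 5 (adjusted p = 0.06 and 0.0681). The call of Cd81, a tetraspanin (0.29), ended without any one of the 4 arrays (highest adjusted p = 0.173).

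Among 13 myogenic transcription factor genes 2 rose and none fell, with a median of 0.02, beside 4.68% higher and 1.9% lower over all genes. Myog went from 9.52 and 9.42 to 10.03 and 9.99, with no overlap, and rose by 0.54 ± 0.09 (adjusted p = 0.00433). Hes6, a factor that promotes differentiation of myoblasts, rose by 0.78 ± 0.11 (adjusted p = 0.00121). Myod1, the determination factor, was at 0.22 ± 0.12 (adjusted p = 0.321), Mef2c, a factor of contractile gene expression, at 0.02 ± 0.12 (adjusted p = 0.946) and Myf6, a factor of mature fibres, at -0.34 ± 0.12 (adjusted p = 0.132). The satellite cell list had 3 of 14 members higher and none lower, against the same shares over all genes. Fgfr4, a fibroblast growth factor receptor of activated satellite cells, rose by 0.58, and its call ended without the right array of either day (adjusted p = 0.0625 and 0.0733). The calls of Myf5, the early determination factor (0.48), and of Spry1, an inhibitor of growth factor signalling in quiescent cells (0.35), were lost without 4 and 3 of the 4 arrays (highest adjusted p = 0.241 and 0.182). Pax7, the factor that defines satellite cells, went from 8.86 and 8.72 to 8.99 and 9.13, which missed the threshold (0.27 ± 0.08, adjusted p = 0.0634).

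Some genes of the acetylcholine receptor rose. Of 14 receptor and neuromuscular junction genes 4 rose and none fell, with a median of 0.18, beside 4.68% higher and 1.9% lower over all genes. Chrng, the fetal gamma subunit, went from 9.30 and 9.40 to 10.55 and 10.58, and rose by 1.21 ± 0.10 (adjusted p = 3.3e-05). The pools of each day were close and the days did not overlap. Ncam1, the neural cell adhesion molecule that marks fibres without innervation and new fibres, rose by 1.18 ± 0.10 (adjusted p = 2.8e-05). The alpha and delta subunits Chrna1 and Chrnd rose by 0.68 and 0.39, but these calls ended without any one of the 4 arrays (highest adjusted p = 0.104 and 0.177). Chrne, the adult epsilon subunit, was at 0.28 (adjusted p = 0.334), and Musk and Rapsn, the receptor kinase and the scaffold of the synapse, were at -0.25 and 0.20 (adjusted p = 0.197 and 0.279).

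The promoters of Chrng and Chrna1 are shown because both hold 2 copies of the E-box CAGCTG, a motif that myogenic basic helix-loop-helix factors are known to bind. They are the 250 bases before the RefSeq start site in GRCm38.p6, on the plus strand at chr1:87205561-87205810 for Chrng and on the minus strand at chr2:73580339-73580588 for Chrna1, with CAGCTG in capitals.

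Chrng promoter: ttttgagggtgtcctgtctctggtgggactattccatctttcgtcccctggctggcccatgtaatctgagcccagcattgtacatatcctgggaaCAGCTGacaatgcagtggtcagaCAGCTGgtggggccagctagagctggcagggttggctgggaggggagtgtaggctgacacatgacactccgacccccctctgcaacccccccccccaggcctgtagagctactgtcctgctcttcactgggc
Chrna1 promoter: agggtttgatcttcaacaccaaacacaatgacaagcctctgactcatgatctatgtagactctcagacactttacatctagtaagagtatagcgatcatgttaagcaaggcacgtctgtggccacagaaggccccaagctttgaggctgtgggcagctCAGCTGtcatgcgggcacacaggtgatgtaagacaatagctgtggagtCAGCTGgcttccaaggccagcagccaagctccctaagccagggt

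The motif is its own reverse complement, so a match counts for both strands. The matches begin 155 and 132 bases before the start of Chrng and 92 and 44 bases before that of Chrna1, and none overlapped the other motifs searched here. Of the 20 genes that rose in the myogenic factor, fusion, developmental contractile, slow fibre and junction lists, 15 had a promoter entry, and 8 of these held CAGCTG in the window from 250 bases before to 50 bases after a start. The share was 18.4% of 15614 tested genes with an entry and 16.3% of all 32851 windows. Members of these lists that did not rise were not counted, so the motif cannot be tied to the rise. Tnnt2, Tnni1, Mybph and Hes6 were among the 8. The windows of Myog, Myh3, Myh8, Actc1, Myl4, Myl6b and Casq2 did not hold these letters.

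Most imprinted genes of growth control rose. These genes are expressed from one parental copy, and many are active in the fetus and in activated satellite cells. Of 15 measured members 11 rose and none fell, with a median of 0.83. Igf2, the fetal insulin-like growth factor, was at 10.01 and 10.24 on day 3 and at 12.39 and 12.46 on day 5. The days did not overlap, and the rise was 2.30 ± 0.12 or 4.94-fold (adjusted p = 2.5e-06). It was 1.52 larger than the step from day 1 to day 3 (adjusted p = 0.00108) and 2.08 larger than the step from day 5 to day 7 (adjusted p = 0.00566).

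Zdbf2, a gene with a zinc finger domain, rose from 7.29 and 7.19 to 9.13 and 9.22, by 1.94 ± 0.16 (adjusted p = 2.5e-05), again more than between days 1 and 3 (difference of the steps 1.61, adjusted p = 0.00319). Mest, a gene of the hydrolase fold, rose from 11.39 and 11.48 to 12.82 and 12.94, and here the step of 1.45 ± 0.12 was smaller than the 2.20 between days 1 and 3 (difference -0.75, adjusted p = 0.0448). The members therefore did not share one time course before day 3. The zinc finger genes Plagl1 and Peg3 rose by 1.54 and 1.42, Grb10, an adaptor that restrains insulin signalling, by 0.83, and Cdkn1c, the cyclin-dependent kinase inhibitor p57 of cells that leave the cell cycle, by 0.66 ± 0.10 (adjusted p = 0.00205). Sgce, a sarcoglycan, rose by 0.47, a call that ended without the left array of day 3 or either array of day 5 (highest adjusted p = 0.0937). Peg10, Ndn, Nnat and Dcn were at 0.37, 0.30, 0.09 and 0.04 and were not called.

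The imprinted domain from Dlk1 to Dio3 on chromosome 12 carried 3 of these genes and a large cluster of microRNA genes. MicroRNAs are short RNAs that pair with messenger RNAs mainly through their seed, bases 2 to 8, and lower their output. The array signal at a microRNA gene covers transcripts across the hairpin and does not measure the mature RNA. MicroRNA genes were outside the rule by which genes were named and are described here after their values were seen. The mature sequences of the 8 cluster genes that were at least 2-fold higher, and of Mir206, a muscle microRNA outside the cluster, show whether these RNAs share a seed. They are from RefSeq, GRCm38.p6, all on the plus strand, with the seed in capitals; 1 arm is shown of each gene, and both arms of Mir379 and Mir411.

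miR-379-5p: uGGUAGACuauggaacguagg
miR-379-3p: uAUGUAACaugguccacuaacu
miR-411-5p: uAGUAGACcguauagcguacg
miR-411-3p: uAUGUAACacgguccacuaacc
miR-380-3p: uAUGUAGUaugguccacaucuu
miR-323-3p: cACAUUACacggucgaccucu
miR-329-3p: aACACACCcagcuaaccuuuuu
miR-300-3p: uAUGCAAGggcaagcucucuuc
miR-382-5p: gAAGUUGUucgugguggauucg
miR-377-3p: aUCACACAaaggcaacuuuugu
miR-206-3p: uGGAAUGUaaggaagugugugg

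The first of these lies at chr12:109709065-109709085, miR-377-3p at chr12:109740553-109740574 and miR-206-3p at chr1:20679055-20679076. The 9 genes give 18 mature sequences with 17 different seeds, and the only shared seed is AUGUAAC of miR-379-3p and miR-411-3p. Of 40 measured microRNA genes between Dlk1 and Dio3, 16 rose and none fell, with a median of 0.39. Of the 257 other microRNA genes 8 rose and 1 fell, with a median of -0.02, beside 4.68% higher and 1.9% lower over all genes. In 31 of the 40 both arrays of day 5 lay above both of day 3, against 23.4% of all genes that lay above and 31.2% that lay below.

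Mir377 was at 5.88 and 6.10 on day 3 and at 7.59 and 7.66 on day 5, a rise of 1.63 ± 0.11 (adjusted p = 8.9e-06). Mir379 went from 4.28 and 4.30 to 5.91 and 5.74, a rise of 1.54 ± 0.14 (adjusted p = 5.5e-05). In both genes the arrays of a day were close and the days lay apart. These signals were low: Mir379 on both days and Mir377 on day 3 lay below the T cell gene Cd3d. Cd3d was at 6.34 and 6.38 on day 3 and at the 15.6th percentile of the genes. With the lowest 25% of genes by mean signal left out, 11 of the cluster genes that remained rose. Mir382, Mir300, Mir380, Mir329 and Mir411 rose by 1.45, 1.31, 1.21, 1.04 and 1.03. Mir323 rose by 1.20, with day 3 arrays at 6.07 and 6.64, and its call ended without the left array of day 3 or either array of day 5 (highest adjusted p = 0.121). The other 8 that rose, Mir376b, Mir369, Mir539, Mir541, Mir134, Mir485, Mir679 and Mir668, did so by 0.37 to 0.90, and of these Mir369 (0.72) kept its call without each of the 4 arrays. The count of 16 was 8 without the left array of day 3 and 10 without the right array of day 5.

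The rise was uneven along the domain. All 16 lay among the 30 measured microRNA genes from Mir379 onward (median 0.54), and none among the 10 before Mir379 (median 0.22). Neighbours differed, as Mir379 and Mir411 rose while Mir299a, the next measured gene, was at 0.14 ± 0.10 (adjusted p = 0.49). Among the longer transcripts Meg3, a noncoding RNA of the maternal copy, went from 9.52 and 9.59 to 11.05 and 10.91 (1.43 ± 0.10, adjusted p = 1.3e-05). Rian, the RNA that hosts the small nucleolar RNAs, rose by 0.84 and Dlk1, a membrane protein related to Notch ligands, by 0.57, calls that ended without the left array of day 3 or either array of day 5 (highest adjusted p = 0.0987 and 0.259). Rtl1 and Dio3, a gene derived from a retrotransposon and the deiodinase that inactivates thyroid hormone, were at -0.08 and 0.07 (adjusted p = 0.773 and 0.736). The measured small nucleolar RNA genes differed. DQ267102 rose by 1.17 ± 0.14 (adjusted p = 3.8e-04), while DQ267101 and AF357341 were at 0.47 and 0.24 and were not called (adjusted p = 0.142 and 0.122). Outside the domain Mir206 went from 6.06 and 5.91 to 7.20 and 7.14 and rose by 1.18 ± 0.17 (adjusted p = 0.00121).

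**Figure D2:**
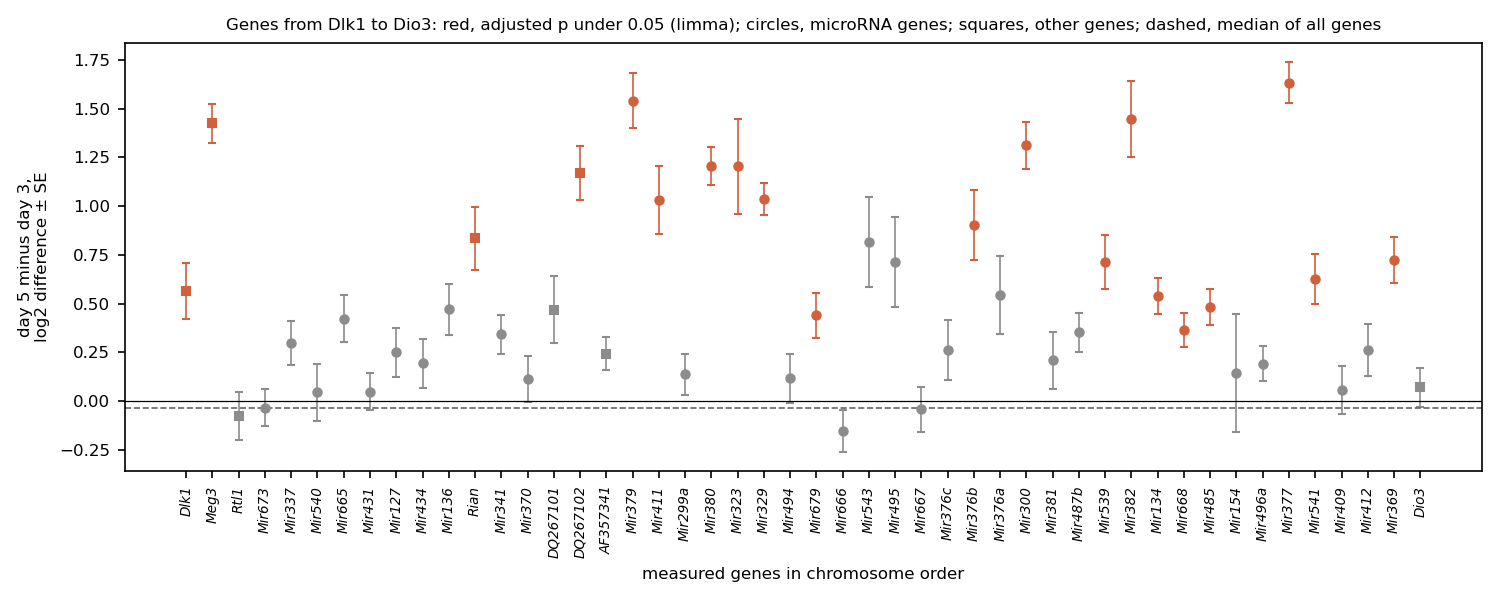
Day 5 minus day 3 (log2) with its standard error for each measured gene from Dlk1 to Dio3 in chromosome order, with microRNA genes as circles, other genes as squares and called genes in red. The 16 called microRNA genes stand between Mir379 and the end of the cluster, among others that were not called, and Mir377 is the highest at 1.63.

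Part of the insulin-like growth factor axis rose. Of 13 members 6 rose and none fell, with a median of 0.28. Igf1, the ligand of postnatal growth, went from 10.85 and 10.91 to 11.33 and 11.39 (0.48 ± 0.09, adjusted p = 0.00723), a call that ended without the left array of day 3 or the right array of day 5 (adjusted p = 0.0706 and 0.0714). Irs1, the docking protein of the receptor, rose by 0.72 ± 0.08 (adjusted p = 2.7e-04), which was 0.62 more than between days 1 and 3 (adjusted p = 0.0169). Igf1r, the receptor, was at -0.15 (adjusted p = 0.23). The smaller rises of Igf2r, Igfbp4 and Igfbp7 (0.29, 0.36 and 0.28) each ended without some of the 4 arrays (highest adjusted p = 0.158, 0.192 and 0.17).

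A part of the Wnt genes rose. Of 16 members 5 rose and none fell, 11 had a value above 0 and 4 below, with Sfrp1, a decoy that binds Wnt proteins, from 10.57 and 10.46 to 11.60 and 11.71 (1.15 ± 0.08, adjusted p = 1.3e-05), and Dkk3, a secreted dickkopf family member, by 0.80 ± 0.09 (adjusted p = 3.7e-04). The rise of Sfrp1 was 1.56 smaller than that between days 1 and 3 (adjusted p = 1.4e-04) and 1.04 larger than that between days 5 and 7 (adjusted p = 0.0431). Ccn4, a matricellular target of the pathway, rose by 0.89 (adjusted p = 2.6e-04). The calls of Dkk2, a dickkopf family member, and Wnt5a, a Wnt ligand (0.52 and 0.55), were lost without 4 and 3 of the 4 arrays (highest adjusted p = 0.202 and 0.188). Of 15 Notch genes 4 rose, beside 4.68% of all genes. Among them were the receptor Notch3 (0.60), which is typical of mural cells, and the target genes Heyl (0.68) and Hey1 (0.56), with adjusted p between 3.6e-04 and 8.9e-04. Jag1, a ligand, rose by 0.40 and its call ended without the left array of day 3 or either array of day 5 (highest adjusted p = 0.186). Of 19 genes of the myostatin, activin and TGF-beta list 6 rose, led by Tgfb3, a TGF-beta ligand (0.70 ± 0.11, adjusted p = 0.00217). Mstn, the gene of myostatin, which limits muscle size, was at 8.12 and 8.12 on day 3 and at 8.48 and 7.92 on day 5, so its arrays overlapped and no change was called (0.08 ± 0.15, adjusted p = 0.804).

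Collagen chains held the most called members of any list. Of 21 collagen chain genes 16 rose and none fell, with a median of 0.62. Col6a3, a chain of the microfibrillar collagen VI, was at 11.21 and 11.21 on day 3 and at 12.10 and 12.15 on day 5 (0.92 ± 0.07, adjusted p = 1.5e-05). Col1a1, the main chain of fibrillar collagen I, went from 12.71 and 12.84 to 13.44 and 13.48 (0.69 ± 0.08, adjusted p = 3.8e-04). Neither gene overlapped between days. The step of Col1a1 was 1.81 smaller than its rise between days 1 and 3 (adjusted p = 7.4e-05), and that of Col6a3 was 0.66 smaller (adjusted p = 0.00473). Col12a1, a collagen of tensile tissue, rose by 1.09, a call that ended without the left array of day 3 or the right array of day 5 (adjusted p = 0.0761 and 0.0622). The basement membrane chains Col4a1 and Col4a2 rose by 0.37 and 0.38, and these calls ended without any one of the 4 arrays (highest adjusted p = 0.0981 and 0.227).

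Of 16 genes of collagen processing and crosslinking 9 rose and none fell (median 0.36), and 5 and 3 rose without the left array of day 3 or the right array of day 5. P4ha3, a subunit of collagen prolyl hydroxylase, rose by 1.13 ± 0.08 (adjusted p = 1.5e-05). Of 22 matricellular and adhesion genes 8 rose and none fell (median 0.33). Lrrc15, a membrane protein of activated fibroblasts, went from 8.86 and 9.10 to 10.91 and 11.03, a rise of 1.99 ± 0.14 or 3.97-fold (adjusted p = 1.3e-05), with no overlap. Fbn2, the fetal fibrillin, rose by 1.47 ± 0.13 (adjusted p = 3.7e-05), and Thbs2, a thrombospondin, by 1.08 ± 0.12 (adjusted p = 2.9e-04). Outside the lists C1qtnf3, a secreted protein with a C1q domain, rose from 9.97 and 10.01 to 11.99 and 11.85 (1.93 ± 0.11, adjusted p = 3.8e-06) and Pamr1, a secreted peptidase-like protein, by 1.48 ± 0.12 (adjusted p = 2.6e-05).

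**Figure D3:**
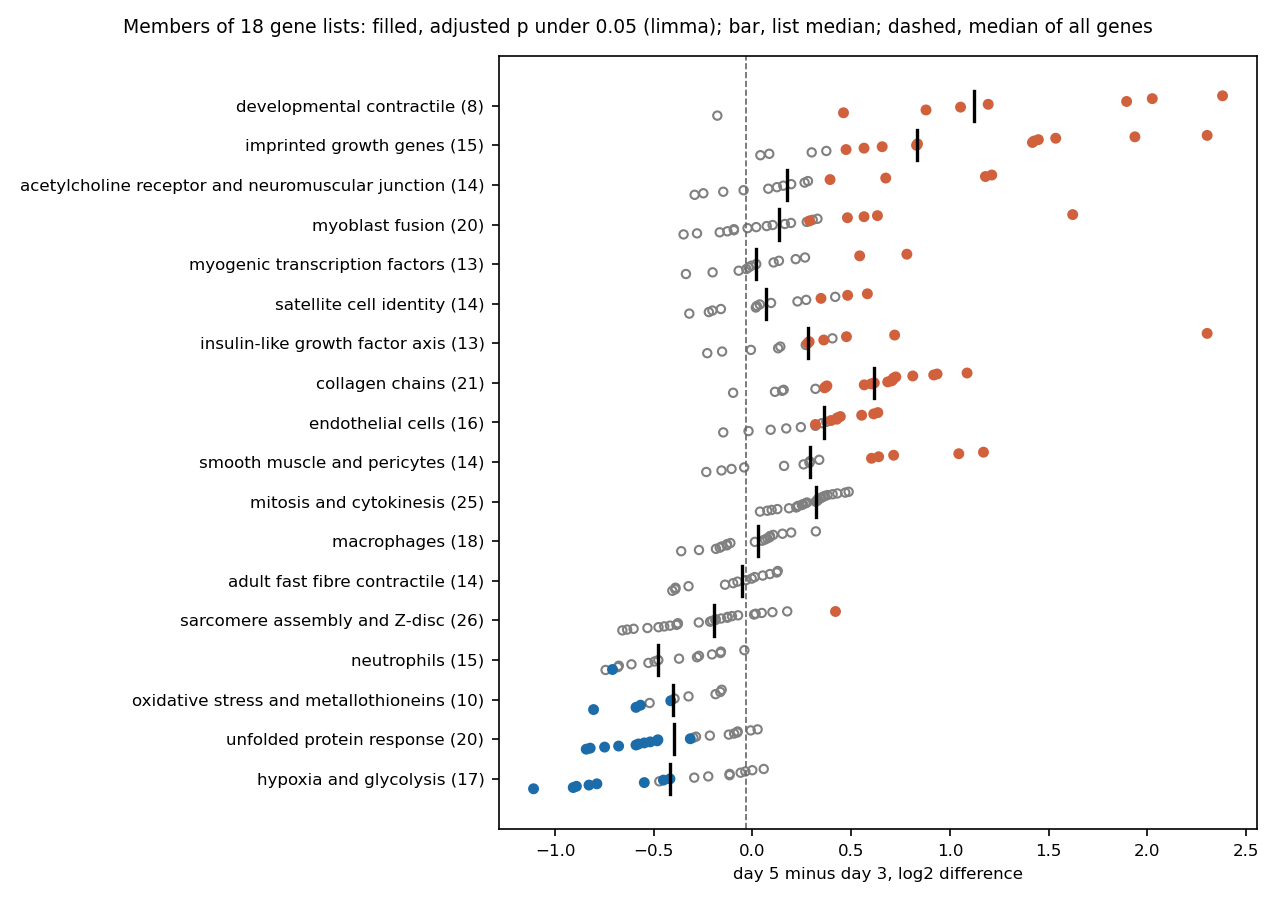
Day 5 minus day 3 (log2) of each measured member of 18 gene lists, with the number measured in brackets; filled points were called, the bar is the list median and the dashed line the median of all genes. Developmental contractile and imprinted genes reach furthest to the right, hypoxia and unfolded protein response genes lie to the left, and mitosis genes lie above 0 with none called.

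Some genes of vessels rose. Of 16 endothelial genes 8 rose and none fell, with a median of 0.36, and 3, 4, 4 and 2 rose without the left and right arrays of day 3 and of day 5. Kdr, the main receptor for vascular endothelial growth factor, went from 9.58 and 9.66 to 10.04 and 10.07, without overlap, and rose by 0.43 ± 0.07 (adjusted p = 0.00338), the only one of the 8 that kept its call without each of the 4 arrays. Of 14 smooth muscle and pericyte genes 5 rose and none fell. Acta2, the smooth muscle actin that myofibroblasts also make, rose from 12.15 and 12.32 to 13.21 and 13.35 (1.05 ± 0.10, adjusted p = 7.5e-05), Tagln and Cnn1, actin-binding proteins, by 1.17 and 0.72, and Pdgfrb, the receptor of mural cells, by 0.64. Myh11, the smooth muscle myosin, was at 0.29 (adjusted p = 0.219).

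The summed linear signal of marker lists was taken over all members, the genes that rose included. It describes the same genes on the same arrays and is no separate evidence for their rise. It lay between 26018 and 26319 on day 3 and between 31780 and 32084 on day 5 for the 16 endothelial genes, and between 31231 and 31413 and between 39768 and 40073 for the 14 smooth muscle genes. For 10 genes of fibro-adipogenic progenitors, the fibroblast-like cells of muscle, it lay between 17144 and 17402 on day 3 and between 22206 and 23360 on day 5. None of these ranges overlapped between days. Their part in the rises was not tested. Of these 10 genes 3 rose, among them Dpt, the matrix protein dermatopontin (0.67 ± 0.10, adjusted p = 0.00126), while Pdgfra, their defining receptor, was at 0.07 (adjusted p = 0.743).

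Part of the genes of hypoxia and glycolysis fell. These genes respond to low oxygen through hypoxia-inducible factors and move cells to glycolysis. Of 17 members 8 fell and none rose, beside 1.9% lower over all genes, with a median of -0.42. Slc2a1, the glucose transporter GLUT1, was at 12.98 and 13.08 on day 3 and at 12.13 and 12.14 on day 5, a 1.86-fold fall (-0.89 ± 0.08 in log2, adjusted p = 3.7e-05). Hk2, the hexokinase of glucose uptake, went from 11.60 and 11.53 to 10.66 and 10.26 (-1.11 ± 0.16, adjusted p = 0.0016), with the right array of day 5 lower than the left. Adm, the peptide adrenomedullin, Vegfa, the vascular endothelial growth factor, and Bnip3, a mitophagy receptor, fell by 0.91, 0.83 and 0.79 on the log2 scale, and Pdk1, the kinase that blocks pyruvate entry into mitochondria, fell by 0.45. The calls of Pfkfb3 and Pfkl, enzymes around phosphofructokinase (-0.55 and -0.42), ended without the right array of either day for Pfkfb3 (highest adjusted p = 0.0633) and without any one of the 4 arrays for Pfkl (highest adjusted p = 0.151). Ldha, Aldoa and Pgk1, glycolytic enzymes with high signal in fibres, were at -0.06, -0.12 and -0.22 and were not called. Outside the list Ak4, a mitochondrial adenylate kinase, fell from 10.92 and 10.89 to 9.83 and 9.72 (-1.12 ± 0.12, adjusted p = 1.8e-04).

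The promoter of Slc2a1 is shown for its match to ACGTG, the core of the element that hypoxia-inducible factors bind. It is the 250 bases before the start at chr4:119108495-119108744 (GRCm38.p6, plus strand), with the motif in capitals.

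Slc2a1 promoter: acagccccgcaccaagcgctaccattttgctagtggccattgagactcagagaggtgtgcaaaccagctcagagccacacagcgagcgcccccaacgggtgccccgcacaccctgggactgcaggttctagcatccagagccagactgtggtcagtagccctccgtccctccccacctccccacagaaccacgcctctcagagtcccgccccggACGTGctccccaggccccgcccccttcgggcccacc

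The match begins 36 bases before the start. All 8 genes that fell had a promoter entry, and 5 of them held ACGTG on either strand of the window, namely Slc2a1, Hk2, Bnip3, Vegfa and Pfkfb3, against 24.4% of 15614 tested genes and 19.6% of all windows. The list was made up of hypoxia and glycolysis genes, and members that did not fall were not counted, so the share cannot be tied to the fall. The match in Slc2a1 overlapped none of the other motifs.

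Many genes of the unfolded protein response fell as well. This response raises chaperones and disulphide enzymes when proteins fold poorly in the endoplasmic reticulum. Of 20 members 11 fell and none rose, with a median of -0.40, and 6 and 7 fell without the right array of day 3 or of day 5. Sdf2l1, a co-chaperone of the reticulum, was at 11.02 and 10.97 on day 3 and at 10.20 and 10.14 on day 5, and fell by 0.82 ± 0.09 on the log2 scale (adjusted p = 2.4e-04). The days did not overlap. Dnajb9, another co-chaperone, fell by 0.75 ± 0.10, Trib3, a pseudokinase induced by the stress factor ATF4, fell by 0.68 ± 0.09, and Atf4 itself fell by 0.55 ± 0.09 (adjusted p = 7.4e-04, 6.0e-04 and 0.0028). Hspa5, the main chaperone BiP, went from 13.17 and 13.42 to 12.78 and 12.78 (-0.52 ± 0.10, adjusted p = 0.00622), a call that ended without the right array of day 3 or of day 5 (adjusted p = 0.0653 and 0.0502). Chac1, an enzyme that degrades glutathione, fell by 0.84, and its call ended without the left array of day 3 or the right array of day 5 (adjusted p = 0.0645 and 0.0622). Xbp1, Canx and Pdia3, a factor of the response, a lectin chaperone and a disulphide isomerase, were at -0.01, -0.08 and 0.03 and were not called.

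The 20 largest falls included Ero1a, Derl3 and Ppp1r15a, which act in the reticulum or in the stress response and are outside the list. Ero1a, the oxidase that drives disulphide formation and that hypoxia also induces, went from 12.02 and 12.45 to 10.69 and 10.82, a fall by 1.48 ± 0.12 on the log2 scale, or 2.80-fold (adjusted p = 2.4e-05). Derl3, a component of the export of misfolded proteins, went from 9.09 and 9.15 to 7.80 and 7.76 (-1.34 ± 0.10, adjusted p = 1.6e-05). Its daily means were 7.75, 8.70, 9.12, 7.78 and 7.61 on days 0, 1, 3, 5 and 7, so day 3 was the highest and the signal of day 5 was near that of day 0. Ppp1r15a, the phosphatase subunit that ends the stress arrest of translation, fell by 1.10 ± 0.11 on the log2 scale (adjusted p = 1.4e-04).

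The promoters of Hspa5 and Derl3 are shown because each holds the stress response element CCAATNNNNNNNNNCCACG, on the plus strand in Hspa5 and as its reverse complement in Derl3. They are the 250 bases before the start in GRCm38.p6, at chr2:34771840-34772089 and chr10:75893148-75893397, both on the plus strand, with the element in capitals.

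Hspa5 promoter: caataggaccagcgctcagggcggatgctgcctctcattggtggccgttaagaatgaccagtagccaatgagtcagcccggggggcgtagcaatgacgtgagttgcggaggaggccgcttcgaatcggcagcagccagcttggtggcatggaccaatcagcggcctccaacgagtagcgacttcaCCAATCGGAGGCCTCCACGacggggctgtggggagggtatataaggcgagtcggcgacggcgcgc
Derl3 promoter: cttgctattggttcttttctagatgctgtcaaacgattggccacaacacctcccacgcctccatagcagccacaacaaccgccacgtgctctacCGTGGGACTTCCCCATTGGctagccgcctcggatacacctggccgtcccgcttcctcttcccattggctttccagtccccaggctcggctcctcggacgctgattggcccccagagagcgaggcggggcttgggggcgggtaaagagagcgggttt

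The element begins 65 bases before the start of Hspa5 and 156 bases before that of Derl3. Of the 11 list members that fell, 10 had a promoter entry and 3 held the element, namely Hspa5, Creld2 and Hsp90b1, against 0.134% of 15614 tested genes and 0.119% of all windows. The list was made up of genes of this response, and members that did not fall were not counted. The share therefore describes the list and cannot be tied to the fall. The falls of Creld2 and Hsp90b1 (-0.59 and -0.32) lost their calls without the right array of day 3 and without 3 of the 4 arrays (highest adjusted p = 0.059 and 0.277). The element overlapped neither of the other motifs in these promoters.

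**Figure D4:**
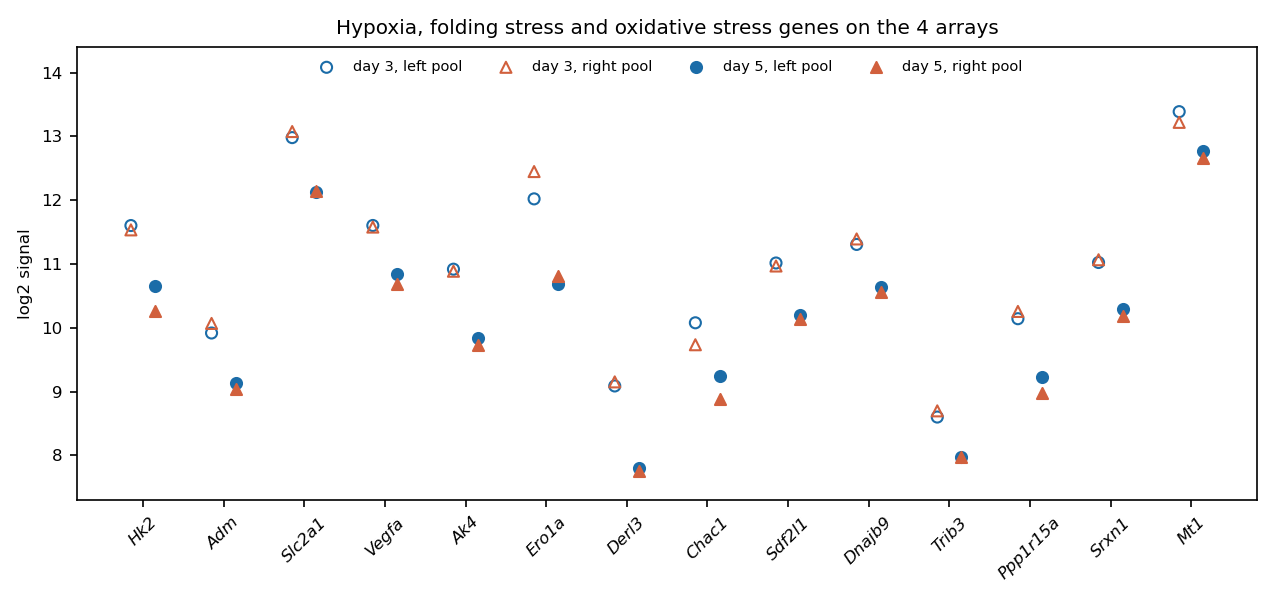
Log2 signal of 14 genes on the 4 arrays, with day 3 as open and day 5 as filled symbols, circles for left and triangles for right pools. In each of the 14 genes both arrays of day 5 lay below both of day 3, and Derl3 fell to 7.80 and 7.76.

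Some oxidative stress genes and a few early response genes fell. Of 10 oxidative stress and metallothionein genes 4 fell and none rose (median -0.40), and 2 fell without the left or right array of day 3 or the right array of day 5. Srxn1, which repairs oxidised peroxiredoxins, went from 11.02 and 11.07 to 10.30 and 10.18 and fell by 0.81 ± 0.07 on the log2 scale (adjusted p = 4.1e-05). The call of Mt1, a metallothionein (-0.59), ended without the left array of day 3 or the right array of day 5 (adjusted p = 0.0832 and 0.078). Of 15 immediate-early genes 4 fell and none rose, Atf3, Ier3, Fosl1 and Maff, and each call ended without at least 2 of the 4 arrays. The median of the immediate-early list was -0.015, with 7 values above 0 and 8 below, so the list as a whole was not lower.

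A few genes of mature fibres and some of atrophy made up part of the remaining falls. Of 24 genes made by muscle fibres 2 fell and 1 rose, beside 1.9% lower and 4.68% higher over all genes. The median of that list was -0.025, with 10 values above 0 and 14 below. Its member that rose was Ky (0.72 ± 0.13, adjusted p = 0.0055), a call that ended without the left array of either day. Trim63, the ubiquitin ligase MuRF1 of muscle breakdown, was at 11.05 and 11.06 on day 3 and at 10.26 and 9.82 on day 5 (-1.01 ± 0.15, adjusted p = 0.002). Both arrays of day 5 were lower, the right one more so. Fbxo32, the ubiquitin ligase atrogin-1, fell by 0.56, a call that ended without either array of day 3 or the right array of day 5 (highest adjusted p = 0.234). Of 15 atrophy and FoxO genes 5 fell and none rose, with a median of -0.09. Ostn, the secreted peptide osteocrin, was at 8.45 and 8.26 on day 3 and at 7.75 and 6.94 on day 5, so the arrays of day 5 lay apart from each other, both below those of day 3 (-1.01 ± 0.26, adjusted p = 0.0371). Its call ended without either array of day 3, and without the right array of day 5 it was at -0.60 (adjusted p = 0.294). Mylk2, the skeletal myosin light chain kinase, Cox7a1, the muscle form of a cytochrome oxidase subunit, and Asb11, a muscle ubiquitin ligase adaptor, fell by 0.90, 0.79 and 1.02 on the log2 scale, and these calls too ended without that array (adjusted p = 0.0527, 0.209 and 0.152) or without the left array of day 3 (adjusted p = 0.0702, 0.186 and 0.114), and those of Cox7a1 and Asb11 also without the right array of day 3 (adjusted p = 0.0537 and 0.059).

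The right array of day 5 had the lowest signal of fibre genes in general. The summed signal of 24 genes made by muscle fibres was 153755 and 139970 on day 3 and 150909 and 122016 on day 5, and the mean log2 signal of the list was 12.04, 11.90, 12.06 and 11.66. Of the 20 largest falls 17 had a lower signal on the right than on the left array of day 5. Of these 20 falls 6 lost their call without that array, Gal, Cnksr1, Ostn, Asb11, Cxcl2 and Myl3, while the 20 largest rises lost none without any one of the 4 arrays. The other 14 of these falls kept their call without it.

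**Figure D5:**
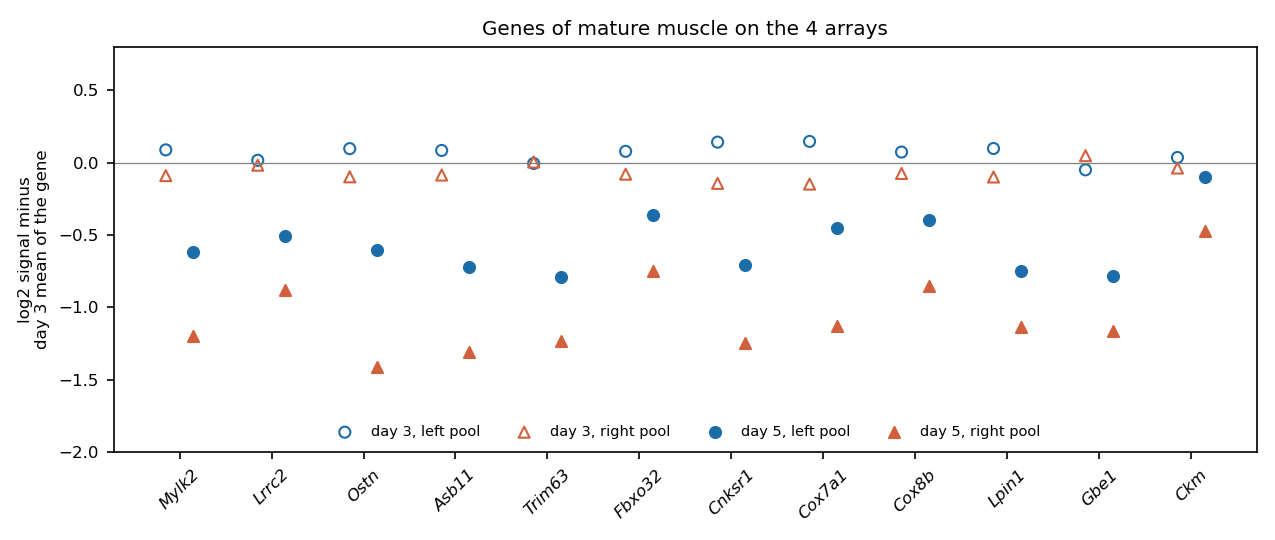
Log2 signal of 12 genes of mature muscle on the 4 arrays, as the difference from the gene's day 3 mean, with day 3 open, day 5 filled, left pools as circles and right pools as triangles. In each gene the right array of day 5 is the lowest of the 4, and in Ckm, which was not called, the arrays of day 5 were at 13.73 and 13.35.

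Cell division genes were not called. All 25 mitosis and cytokinesis genes had a value above 0, with a median of 0.32. In 20 of them both arrays of day 5 lay above both of day 3, against 23.4% of all genes. By limma on all 14 arrays 0 were called and 6 had an unadjusted p under 0.05, and 3 were called when the 4 arrays were fitted alone. Mki67, the proliferation marker Ki-67, was at 10.66 and 10.88 on day 3 and at 10.98 and 11.25 on day 5, without overlap (0.35 ± 0.33, adjusted p = 0.594). Its wide error was estimated over all days, and its arrays of day 0 lay apart at 9.66 and 8.24. Mki67 had risen by 2.79 from day 1 to day 3, and the step to day 5 was 2.44 smaller (adjusted p = 0.0204). Of 26 DNA replication genes 0 were called (2 at an unadjusted p under 0.05), with a median of 0.06. Gadd45a, a stress-induced inhibitor of growth, fell by 0.80, a call that ended without any one of the 4 arrays (highest adjusted p = 0.257).

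Immune cell lists held few calls, as lists of this size would at the 6.59% called over all genes. The values of neutrophil genes were low as a list. None of 18 macrophage genes was called (2 had an unadjusted p under 0.05 in limma), with a median of 0.03 and a summed signal between 72163 and 74736 on day 3 and between 70991 and 74738 on day 5. Cd68, a lysosomal marker of macrophages, was at 12.88 and 12.81 and at 12.65 and 12.78 (-0.13 ± 0.16, adjusted p = 0.702). All 15 neutrophil genes had a value below 0 (median -0.48), and 1 was called, Il1r2, a decoy receptor for interleukin 1 (-0.71, adjusted p = 0.0169, ended without 3 of the 4 arrays, highest adjusted p = 0.133). The left array of day 5 had the lowest neutrophil signal, with a sum of 11712 against 18625 on the right and 19284 and 19964 on day 3. Of 31 cytokine and chemokine genes 4 fell and 1 rose, beside 1.9% lower and 4.68% higher over all genes. Cxcl3, a chemokine that attracts neutrophils, went from 9.25 and 9.68 to 8.39 and 8.30 (-1.12 ± 0.15, adjusted p = 9.6e-04), and Il33, an alarmin of stromal cells, fell by 0.61 ± 0.10 on the log2 scale (adjusted p = 0.00382). The calls of Cxcl2 (-1.09) and Cxcl14 (-0.62) ended without any one of the 4 arrays (highest adjusted p = 0.235) and without 3 of the 4 (highest adjusted p = 0.163), and that of Cxcl16 (0.46) without any one of the 4 arrays (highest adjusted p = 0.176). Serpinb2, an inhibitor of plasminogen activators made by activated macrophages, had the largest fall of all genes tested, from 9.29 and 10.03 to 8.13 and 8.10 (-1.54 ± 0.20, adjusted p = 7.3e-04), with the arrays of day 3 apart from each other but both above those of day 5.

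Far more genes were called in the step before and fewer in the step after. Between days 1 and 3, 3896 genes (19.5%) were higher and 4923 (24.7%) lower, and between days 5 and 7, 80 (0.401%) and 125 (0.627%). These comparisons share the arrays of day 3 or day 5 with the one described here. The step from day 3 to day 5 differed by test from that between days 1 and 3 in 1915 genes (9.6%), and from that between days 5 and 7 in 4 genes (0.0201%), which were Actc1, Igf2, Mymk and Sfrp1. Some of the 20 largest rises had no called change between days 1 and 3 and a larger step after it by test. Both steps use the arrays of day 3, and these genes were picked for a large rise from day 3. A low signal on day 3 thus favours both the pick and a larger difference of the steps, here and for each such gene above and below. Tecrl, a reductase-like membrane protein of heart and muscle, was at 5.12 and 5.41 on day 3 and at 7.25 and 7.59 on day 5. It rose by 2.15 ± 0.17 (adjusted p = 2.3e-05), and the difference of the steps was 1.93 (adjusted p = 0.00191). Its signals were low, among the lowest 25% of genes by mean signal. Itm2a, a membrane protein of muscle and chondrocyte differentiation, rose from 9.67 and 9.91 to 11.70 and 11.52 (1.82 ± 0.12, adjusted p = 8.9e-06; difference of the steps 1.84, adjusted p = 3.1e-04). Its day 3 mean of 9.79 was below its day 0 mean of 10.95, and that of day 5, 11.61, was above it.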

How the data were processed

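Total RNA of plantaris muscle was measured on 14 Affymetrix Mouse Gene 1.0 ST arrays, 2 on each of 7 days. The values are log2 signals of 35557 probe sets as deposited by the authors; Partek is named without a version in the submitters' processing notes, and how the arrays were normalized is not stated there or in the labels. The design text and the label protocol give different amounts of input RNA, so neither is printed. Of the probe sets 21789 carried 1 gene symbol in the platform annotation, 1621 several and 12147 none, and 21698 of the first matched a RefSeq gene by Entrez ID. The probe set with the highest mean signal stood for each of the 999 genes with more than 1, which gave 19938 genes. limma 3.58.1 in R 4.3.3 was fitted to all 14 arrays with the day as group (lmFit, eBayes, 7 residual degrees of freedom), tested on simulated data, with Benjamini-Hochberg adjustment over all genes.

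Left and right pools of a day were taken as its replicates. Genes were named by rule: the 20 largest rises and the 20 largest falls among called genes without overlap between days (predicted, microRNA and small nucleolar RNA genes left out), leading members of each gene list, and genes fixed by name. The comparison and the gene lists were chosen with earlier results of these data known, so lists are given as counts and medians with no test. Motifs were searched in RefSeq promoters of GRCm38.p6. The alternatives were scaling, centring, a filter on low signals, other probe set rules, the variance model, array weights, the samples fitted, side as a block, the threshold and leaving out each array. Other muscles, ages or sham-operated animals were not analysed here.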

Additional observations from a re-analysis of the deposited data

How the results depend on the processing

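No called gene among the 154 named changed direction under any alternative that was compared gene by gene. The fit of all probe sets was not among these. Mstn and Mef2c, which were not called, crossed 0 (-0.20 to 0.36 and -0.14 to 0.18), as did several list medians near 0. Counts depended most on single arrays. With each of the 14 arrays left out in turn, 415 to 998 genes were higher and 99 to 393 lower, and 63 to 91 and 7 to 34 of them at least 2-fold. Called members ranged from 6 to 7 for developmental contractile genes, 8 to 12 for imprinted genes, 12 to 16 for collagen chains, 3 to 9 for collagen processing, 7 to 11 for matricellular genes, 2 to 10 for endothelial genes, 8 to 18 for the microRNA genes between Dlk1 and Dio3, 6 to 8 for hypoxia, 2 to 5 for oxidative stress and 6 to 11 for the unfolded protein response, and were 0 for mitosis in each. Without the left array of day 3, 527 of the 1313 calls were shared, and without the right array of day 5, 506. These fits have fewer samples; the cause was otherwise not tested.

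At an adjusted p under 0.01, 476 genes were higher and 119 lower, with 2 oxidative stress and 5 endothelial members. Array weights gave 579 lower genes, all probe sets 34 at least 2-fold lower, and the 4 arrays alone 3 mitosis genes higher. The causes were not tested. The weights were the same for the left and right array of each day (1.076 on day 3 and 1.244 on day 5), so they could not weigh down a single array. The centring that sets the median difference to 0 was chosen after seeing the data. With side as a replicate block 986 genes were higher and 468 lower, 69 and 15 of them at least 2-fold. The sides do not pair the days, which held different animals: the right minus left differences of days 3 and 5 correlated at r = 0.161 across genes, and only 6 of the 21 pairs of days exceeded 0.1. The 2 arrays per day limit all counts.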

Other observations

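A few genes of lymphocytes and cytotoxic granules stood higher on day 5. Gzmd, which encodes the serine protease granzyme D, was at 5.17 and 4.77 on day 3 and at 6.95 and 7.09 on day 5, a rise of 2.05 ± 0.25 (limma, adjusted p = 5.1e-04). Gzme, the gene of granzyme E, rose by 1.70 ± 0.23 (adjusted p = 9.3e-04). Neither gene overlapped between the days, and both rose more than between days 1 and 3 (differences of the steps 2.47 and 1.95, adjusted p = 0.00458 and 0.00988). The granzyme genes are close copies, so their probe sets may read each other's transcripts. Cd4, the co-receptor of helper T cells that some mouse macrophages and dendritic cells may also carry, went from 7.81 and 7.69 to 8.54 and 8.64 (0.84 ± 0.12, adjusted p = 0.00141). It was the only one of 14 T cell genes called, beside 6.59% of all genes. Cd3e, a chain of the T cell receptor complex, was at 0.08 (adjusted p = 0.673).

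Of 11 complement genes 4 rose and none fell, beside 4.68% higher and 1.9% lower over all genes, and each of these calls ended without at least 2 of the 4 arrays. Serping1, the inhibitor of the first complement component, had the smallest adjusted p of them (0.45 ± 0.08, adjusted p = 0.0075). Of 14 circadian clock genes Per3 rose by 0.46 and Ciart and Bhlhe40 fell by 0.86 and 0.45 on the log2 scale, against the same shares over all genes. The calls of Per3 and Ciart each ended without 3 of the 4 arrays (highest adjusted p = 0.115 and 0.175). The fall of Bhlhe40, a repressor that hypoxia also induces, was called without each of the 4 arrays (highest adjusted p = 0.0431).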
